A study of Rattus norvegicus with 3 samples.

Results

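Immediate early and unfolded protein stress genes were described in cultured commissural neurons of the rat, the spinal neurons whose axons cross the ventral midline. The set holds 10 genes, Jun, Fos, Egr1, Atf3, Atf4, Ddit3, Trib3, Xbp1, Hspa5 and Gadd45a, chosen by name, and each symbol, ignoring case, was found at exactly 1 of the 26353 entries of the deposited table, where Xbp1 and Ddit3 are spelled XBP1 and DDIT3. Cells were taken from rat embryos of embryonic day 13 and kept 2 days in vitro, and polyadenylated RNA was sequenced. The study gave 1 group of 3 libraries, called libraries 1, 2 and 3 after the replicate numbers in the labels, with no treatment, no mutant and no uncultured tissue among the samples analysed here. Genes were therefore compared with each other, and no value shows whether culture, dissociation or any other handling changed them. Values are FPKM, fragments counted per length of transcript and per size of the library, so levels of different genes are compared per length. The labels do not state whether separate cultures or animals stand behind the libraries. The p-values given therefore cover the spread among these 3 libraries alone, and that spread may be technical.

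Immediate early genes are switched on within minutes of a stimulus from factors already present in the cell. Jun and Fos pair as the AP-1 transcription factor, Egr1 is a zinc finger factor induced by growth factors and neuronal activity, and Atf3 is a stress-induced factor known as a marker of injured sensory neurons. When unfolded proteins build up in the endoplasmic reticulum (ER), the sensors Ern1, Eif2ak3 and Atf6 start the unfolded protein response. Ern1 splices the Xbp1 mRNA into the form that encodes the active factor, Eif2ak3 raises translation of Atf4, and Atf4 drives Ddit3 (CHOP) and Trib3. Hspa5 encodes BiP, the main chaperone of the ER, and Gadd45a is a growth arrest gene induced by DNA damage and other stress. A level of FPKM per gene does not separate spliced from unspliced Xbp1 mRNA and does not show how much Atf4 protein is made.

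The promoters of 4 of the genes are shown because they carry response elements that textbooks tie to these pathways. RefSeq promoters of assembly GRCr8, from 250 bases before to 50 after the start of the gene, matched 7 of the 10 genes by symbol, and no promoter was matched for Jun, Fos and Atf3. In the first pair the capitals mark the ER stress response element, CCAAT and CCACG held apart by 9 bases of any kind. In Trib3 they mark the element TGATGNAAN, read by Atf4 together with a C/EBP partner, here on the opposite strand. In Ddit3 they mark the AP-1 element TGACTCA. Each is given 5′ to 3′ on the strand of the gene.
Hspa5, chr3:38452766-38453065, plus strand: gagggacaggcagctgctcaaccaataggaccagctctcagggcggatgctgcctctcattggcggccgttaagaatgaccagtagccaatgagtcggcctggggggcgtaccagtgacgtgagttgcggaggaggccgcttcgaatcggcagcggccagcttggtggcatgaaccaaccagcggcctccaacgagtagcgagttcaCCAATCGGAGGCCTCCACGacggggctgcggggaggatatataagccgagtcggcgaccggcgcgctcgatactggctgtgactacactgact
Xbp1, chr14:84604373-84604672, plus strand: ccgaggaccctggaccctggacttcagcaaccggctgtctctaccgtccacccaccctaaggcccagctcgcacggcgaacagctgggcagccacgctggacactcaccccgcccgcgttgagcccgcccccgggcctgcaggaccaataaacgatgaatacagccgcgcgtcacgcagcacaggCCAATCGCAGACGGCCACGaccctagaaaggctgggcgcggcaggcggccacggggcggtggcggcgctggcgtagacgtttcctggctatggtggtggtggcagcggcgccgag
Trib3, chr3:161275484-161275783, minus strand: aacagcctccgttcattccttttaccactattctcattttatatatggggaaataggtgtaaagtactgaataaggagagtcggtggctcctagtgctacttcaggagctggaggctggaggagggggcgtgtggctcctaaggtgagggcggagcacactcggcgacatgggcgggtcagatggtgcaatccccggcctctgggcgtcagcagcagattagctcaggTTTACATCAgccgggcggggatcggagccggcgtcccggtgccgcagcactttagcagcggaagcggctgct
Ddit3, chr7:65001445-65001744, plus strand: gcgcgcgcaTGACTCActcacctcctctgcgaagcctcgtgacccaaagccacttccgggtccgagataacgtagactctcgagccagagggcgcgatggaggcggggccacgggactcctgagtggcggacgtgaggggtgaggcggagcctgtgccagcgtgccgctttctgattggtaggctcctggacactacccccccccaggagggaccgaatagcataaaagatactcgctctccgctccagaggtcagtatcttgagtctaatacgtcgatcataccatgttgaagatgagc

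Hspa5 and Xbp1 each held 1 exact ER stress element, starting 43 and 65 bases before the annotated start of the gene. Among all 33469 promoters of the table, 22 (0.0657%) held it on either strand. The Atf4 element was found in the Trib3 promoter alone among the 7, at 22 to 14 bases before the start, and in 3.97% of all promoters. The AP-1 element, whose reverse complement TGAGTCA is the same site, was found in the Ddit3 promoter and in 4.63% of all promoters. The Egr1 promoter held 2 CArG boxes, the site of serum response factor, which 1.64% of promoters held. TGACG, the core of the cyclic AMP response element, was present in 6 of the 7 and in 21.2% of all promoters; the full element TGACGTCA, which contains it, was in 0 of the 7 and in 1.83%. The Egr site GCGGGGGCG was in 0 of the 7 (2.73% of all), and TATAAA in Atf4 and Trib3 (14.2% of all). All motifs were searched on both strands, and a match describes the letters of this window and is not a measured binding site.

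Neuronal and commissural markers were present, and so were markers of dividing cells. All 6 pan-neuronal markers lay above 1 FPKM, from Rbfox3 at 27.0 ± 2.29 to Tubb3 at 960 ± 70.2 FPKM (SD, n = 3 here and below), as did 4 of 4 commissural axon markers (Robo3, Dcc, Boc and Cntn2), 6 of 6 progenitor and 6 of 6 proliferation markers. Of the microglia and macrophage markers 2 of 8 did, of neural crest and sensory ganglion 2 of 6, of fibroblast and mural cells 1 of 6, and of endothelium 0 of 6 in limma's test, with 0 of them at an unadjusted p under 0.05 as well. The same test passed 63.7% of all 17611 entries, so passing 1 FPKM is common in this table. In bulk RNA, more cells of a type and more RNA per cell cannot be told apart, and the cell source of each stress gene is not known. Library 2 stood apart. All 15 of 15 genes with very long transcripts were lowest there, as were 21.2% of 11109 named entries of at least 1 FPKM. The median log2 difference from the mean of libraries 1 and 3 was -0.94 for these 15 genes and 0.13 for the named entries.

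All 10 genes passed 1 FPKM in the one-sided test of limma with Benjamini-Hochberg adjustment over all 17611 entries tested, of which 63.7% did, so such a count is common in this table. The largest of their adjusted p-values (limma) was 0.00544, for Egr1. Their levels ran over 2 orders of magnitude. The median of their mean levels was 19.0 FPKM, beside 4.81 FPKM over all entries tested. In the order of means, Atf4, Hspa5, Jun and Xbp1 stood at the high end, then Ddit3, Gadd45a and Trib3, and at the low end Atf3, Egr1 and Fos. The values do not set these groups apart, as the largest step between neighbours, 2.94-fold, lay between Gadd45a and Trib3.

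**Figure D1:**
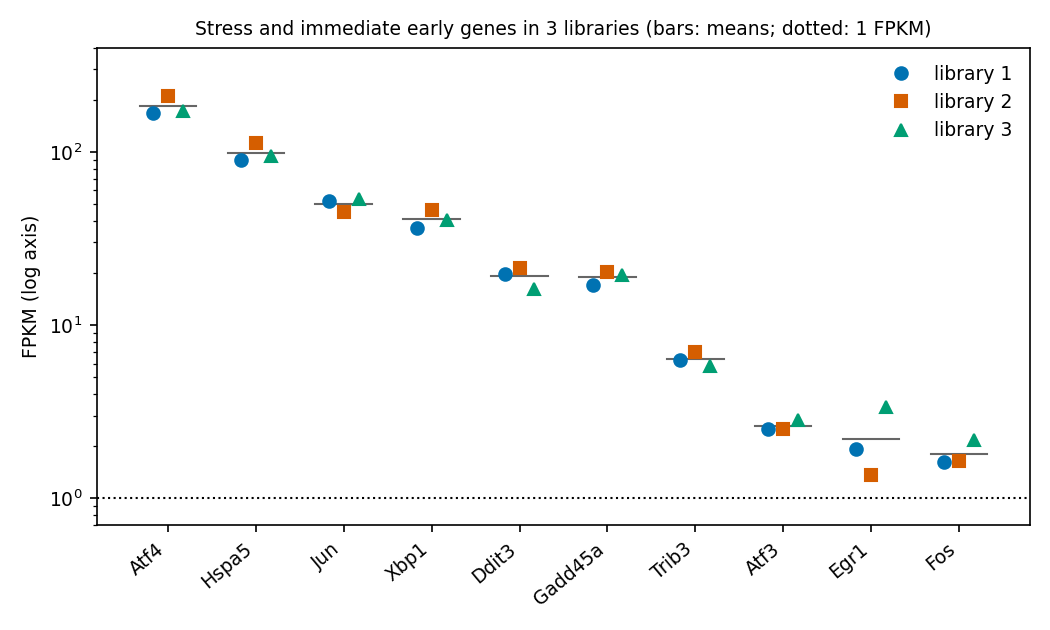
FPKM of each gene in libraries 1, 2 and 3 on a log axis, with the mean of the 3 libraries as a bar and 1 FPKM as a dotted line. Atf4 reached 212 FPKM in library 2, while Egr1 lay between 1.36 and 3.35 FPKM and varied most.

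Among Jun, Fos, Egr1 and Atf3, Jun was by far the highest. Jun (ENSRNOG00000026293) had 51.9, 44.8 and 53.5 FPKM in libraries 1, 2 and 3. Its partner Fos (ENSRNOG00000008015) had 1.61, 1.63 and 2.16 FPKM. Egr1 (ENSRNOG00000019422) had 1.92, 1.36 and 3.35 FPKM. Jun thus exceeded both others many times over in every library, and the ranges of Fos and Egr1 overlapped. Jun exceeded Fos by 26.6-fold (95% interval 21.2 to 33.3, limma's moderated variances of both genes, Benjamini-Hochberg adjusted p = 3.98e-12, 3 of 3 libraries), on the scale of FPKM + 0.1 used for all ratios here, which understates those of low genes. It exceeded Egr1 by 23.1-fold (15.4 to 34.7, limma, adjusted p = 1.53e-06). Egr1 and Fos were not told apart: their ratio was 1.15 (0.754 to 1.75, limma, adjusted p = 0.483), and Egr1 was the higher in 2 of 3 libraries. Atf3 (ENSRNOG00000003745) had 2.51, 2.51 and 2.82 FPKM, the smallest spread of the set on the log2 scale. It exceeded Fos by 1.44-fold (1.13 to 1.84, limma, adjusted p = 0.00706, 3 of 3 libraries), but this was lost without library 1 (limma, adjusted p = 0.177), without library 2 (0.118) and with a variance prior that ignores the level (0.237). Atf3 and Egr1 did not differ past the threshold (ratio 1.25, interval 0.828 to 1.89, limma, adjusted p = 0.259).

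The relatives of these factors showed the same unevenness. Of 19 other immediate early transcription factors, 10 lay above 1 FPKM, with a median of 1.55 FPKM. Jund, the AP-1 subunit that is typically present without a stimulus, led at 134 ± 6.14 FPKM, followed by the nuclear receptor Nr4a2 at 26.9 ± 0.964 and Ier5 at 14.9 ± 2.75. Junb, the most variable of those with at least 1 FPKM, had 1.53, 2.05 and 2.46 FPKM. Fosb had 0.03, 0.01 and 0.02 FPKM, and Egr4 was listed at 0.04, 0 and 0. Jun and Jund therefore stood high among the AP-1 genes, while Fos and Fosb stood low. Of 15 immediate early genes that are not transcription factors, 11 lay above 1 FPKM, led by the phosphatase Dusp4 at 101 ± 1.49, Btg2 at 22.7 ± 3.23 and Dusp1 at 21.0 ± 0.933 FPKM. Dusp5, the most variable of those with at least 1 FPKM, had 1.65, 1.13 and 1.08 FPKM and did not pass (limma, adjusted p = 0.0626). The activity-regulated gene Arc (0.797 ± 0.0987) and Ier3 (0.787 ± 0.117) were the lowest.

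The machinery that switches these genes on was present throughout. All 12 inducers lay above 1 FPKM, with the kinase Mapk3 at 45.1 ± 3.73 and the CREB coactivator Crtc1 at 17.8 ± 0.436 FPKM among the highest, and the Elk factors Elk4 (3.15 ± 0.215) and Elk3 (1.45 ± 0.216) lowest. Mkl2, a coactivator of serum response factor, varied most, with 6.27, 4.61 and 6.59 FPKM. All 10 genes of the Jun N-terminal kinase pathway, which phosphorylates Jun, lay above 1 FPKM too, with a median of 28.3 FPKM. Its scaffold Mapk8ip1 had 103 ± 8.95, the kinase Mapk8 102 ± 3.23 and the scaffold Mapk8ip2 48.3 ± 0.668 FPKM. Within this list the kinase Map2k7 was low, at 17.7 ± 0.308 FPKM, and the kinase Map3k13 was the lowest and the most variable, with 11.9, 9.75 and 11.3 FPKM.

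The integrated stress arm held the highest gene of the set and its lower targets. Atf4 (ENSRNOG00000017801) had 169, 212 and 172 FPKM, above 98.0% of 15827 named entries. Ddit3 (ENSRNOG00000006789), its pro-apoptotic target, had 19.9, 21.4 and 16.1 FPKM. Trib3 (ENSRNOG00000007319), a pseudokinase that Atf4 and Ddit3 induce, had 6.30, 7.01 and 5.78 FPKM. Each was highest in library 2, as were 63.1% of 11109 named entries of at least 1 FPKM. No library of one overlapped those of another. Atf4 exceeded Ddit3 by 9.60-fold (7.96 to 11.6, limma, adjusted p = 1.56e-12, 3 of 3 libraries) and Atf3 by 67.6-fold (55.3 to 82.7, limma, adjusted p = 9.69e-16). Ddit3 exceeded Trib3 by 2.96-fold (2.47 to 3.55, limma, adjusted p = 3.00e-09). In libraries 1, 2 and 3 the ratio of Atf4 to Trib3 was 26.4, 29.8 and 29.2, while that of Atf4 to Ddit3 was 8.48, 9.83 and 10.6.

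Other genes of this arm were expressed as well. All 11 core genes of the integrated stress response lay above 1 FPKM, with a median of 16.7 FPKM. Atf5, a factor related to Atf4, had 140 ± 18.9, the translation factor subunit Eif2s1 52.9 ± 6.15 and Cebpg, a dimer partner of Atf4, 29.7 ± 2.26 FPKM. Cebpb (3.45 ± 0.370) and the kinase Eif2ak2 (2.49 ± 0.0862) were the lowest, and Eif2b1, a subunit of the exchange factor of eIF2, varied most, with 14.8, 20.3 and 14.8 FPKM. All 16 known Atf4 targets lay above 1 FPKM, with a median of 25.4 FPKM. They were led by the amino acid transporter subunit Slc3a2 at 68.3 ± 5.50 and by Shmt2 at 62.6 ± 7.14 and Psat1 at 59.0 ± 6.32 FPKM, enzymes of serine and glycine metabolism. Nupr1 varied most, with 3.01, 2.40 and 1.59 FPKM, and Cth, an enzyme of cysteine synthesis, was lowest at 1.26 ± 0.0265 FPKM. These genes also serve ordinary amino acid metabolism, so their levels do not measure Atf4 activity.

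**Figure D2:**
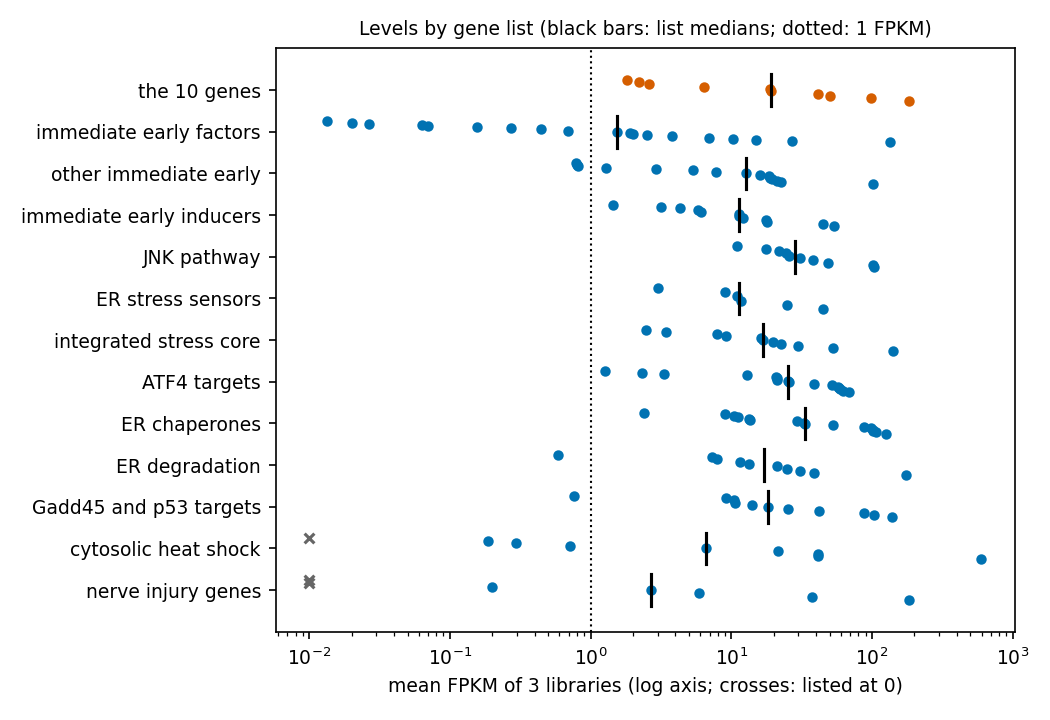
Mean FPKM over 3 libraries of each gene, on a log axis, for the 10 genes and for 12 lists of related genes, with list medians as black bars and genes listed at 0 as crosses. The ER and integrated stress lists lie almost wholly above 1 FPKM, while the immediate early factors range from 0.0133 to 134 FPKM.

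The ER arm stood near the top of the set. Hspa5 (ENSRNOG00000018294), whose promoter with the ER stress element is printed above, had 89.4, 112 and 95.02 FPKM, above 95.7% of named entries. Xbp1 (ENSRNOG00000010298), whose promoter carries the same element, had 36.3, 46.5 and 40.3 FPKM. Their ranges did not overlap. Both genes were highest in library 2, as were 63.1% of 11109 named entries of at least 1 FPKM. Both were lowest in library 1, as were 43.3% of those entries. Hspa5 exceeded Xbp1 by 2.41-fold (2.02 to 2.87, limma, adjusted p = 2.15e-08), at 2.46, 2.42 and 2.35 in libraries 1, 2 and 3, so the ratio moved far less than the levels. Such likeness is common with 3 libraries. In profile, 2134 of 10612 described entries lay within 0.1 log2 units of Hspa5 and 1474 of Xbp1. All 6 sensors and their proteases lay above 1 FPKM. Atf6b had 45.04 ± 1.94, the site-1 protease Mbtps1 25.1 ± 1.49, the kinase Eif2ak3 11.7 ± 0.427, Mbtps2 10.9 ± 0.752, Atf6 9.06 ± 0.153 and Ern1, the kinase that splices Xbp1 mRNA, 3.02 ± 0.212 FPKM.

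Of 16 ER chaperones and foldases all 16 lay above 1 FPKM, with a median of 33.3 FPKM. Calr had 126 ± 12.7, Hsp90b1 106 ± 9.87 and Pdia3 101 ± 8.36 FPKM, all chaperones or foldases of the same class as Hspa5. Dnajc3 (9.05 ± 1.07) and Ero1lb, an oxidase for disulfide bonds, were the lowest, and Ero1lb was also the most variable, with 2.67, 1.94 and 2.62 FPKM. Of 10 genes that degrade misfolded ER proteins, 9 lay above 1 FPKM, with the ATPase Vcp at 174 ± 9.09, Os9 at 38.6 ± 2.29 and Derl1 at 31.0 ± 2.22 FPKM highest. Derl2 was the most variable, with 6.64, 7.93 and 9.04 FPKM, Edem1 had 7.34 ± 1.08, and Derl3 was listed at 0.44, 0.70 and 0.63 and did not pass.

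Gadd45a (ENSRNOG00000005615) had 16.9, 20.4 and 19.5 FPKM. Its level could not be told from that of Ddit3 (ratio of Ddit3 to Gadd45a 1.01, interval 0.847 to 1.195, limma, adjusted p = 0.944), and each was the higher in at least 1 library. Of 11 Gadd45 relatives and p53 targets, 10 lay above 1 FPKM, led by Btg1 at 137 ± 9.21, Bax, which promotes apoptosis, at 104 ± 10.1 and the cyclin Ccng1 at 88.1 ± 7.94 FPKM. Pmaip1 varied most, with 9.70, 10.4 and 7.43 FPKM. The 2 close relatives of Gadd45a differed. Gadd45g had 38.55, 47.7 and 38.65 FPKM, above Gadd45a in each library, while Gadd45b had 0.64, 0.89 and 0.76 FPKM and did not pass.

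In the order of the means, each neighbour pair was compared by its ratio. The intervals, and the p-values beside them, do not use the pairing of genes within libraries. Atf4 exceeded Hspa5 by 1.86-fold (1.55 to 2.23, limma, adjusted p = 3.02e-06), and Hspa5 exceeded Jun by 1.97-fold (1.67 to 2.33, limma, adjusted p = 3.87e-07). Jun exceeded Xbp1 by 1.22-fold (1.04 to 1.44, limma, adjusted p = 0.0220), but Jun was the lower in library 2. That call was lost without library 1 (limma, adjusted p = 0.216), without library 3 (0.111) and with a prior that ignores the level (0.114). Xbp1 exceeded Ddit3 by 2.15-fold (1.79 to 2.57, limma, adjusted p = 2.23e-07), Gadd45a exceeded Trib3 by 2.94-fold (2.49 to 3.48, 1.32e-09) and Trib3 exceeded Atf3 by 2.38-fold (1.96 to 2.89, 1.62e-07), each in 3 of 3 libraries. The neighbours Ddit3 and Gadd45a, Atf3 and Egr1, and Egr1 and Fos were not told apart.

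Over all 45 pairs, 42 differed past the threshold in limma's test of the ratio within libraries, and the same 42 did with the moderated variances of both genes. Without library 2, 40 pairs were called and all 10 genes still passed 1 FPKM. The share of all entries called higher than the same gene is given beside each count, first by the test of the ratio and then with both variances. Against Fos, 8 of the 9 other genes were higher (57.9% and 58.0% of entries), and against Egr1 7 of 8 (51.3% and 54.6%). All 7 genes above Atf3 in the order were called higher than it (54.8% and 54.3%), all 6 above Trib3 (41.9% and 41.7%), 4 of 5 above Gadd45a (21.0% and 20.5%) and all 4 above Ddit3 (19.7% and 20.1%). All 3 genes above Xbp1 were called higher (9.50% and 9.12%), both above Jun (6.68% and 7.18%), and Atf4 above Hspa5 (3.65% and 3.29%). The shares place each gene in the table, and the pairs share genes and are not independent. Trib3 exceeded Egr1 by 2.97-fold (1.98 to 4.48, limma, adjusted p = 5.03e-04), which was lost without library 1 (limma, adjusted p = 0.227) and without library 2 (0.0624).

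**Figure D3:**
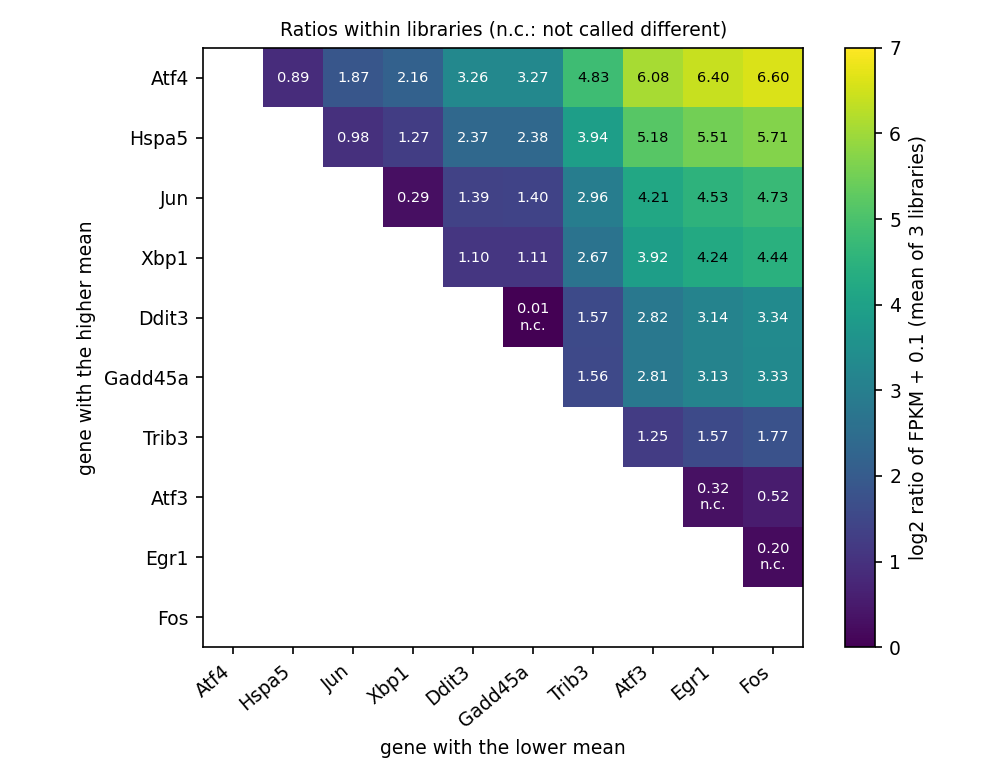
Mean log2 ratio within libraries of the gene in the row, which has the higher mean, over the gene in the column, with n.c. where the pair was not called different. The 3 pairs marked n.c. lie next to the diagonal, at 0.01 for Ddit3 over Gadd45a, 0.32 for Atf3 over Egr1 and 0.20 for Egr1 over Fos.

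Spread between libraries differed among the genes. Egr1 was highest in library 3 and lowest in library 2, 2.46 times apart, and its SD of log2 values was 0.63. That SD was larger than in 97.4% of 2339 named entries with a mean within 2-fold of its own, whose median SD was 0.17. Ddit3 had an SD of 0.21, larger than in 90.0% of entries of like level, and Atf3 one of 0.09, larger than in only 22.2%. Of the 10 genes, 9 had an SD above the median of entries of like level. The summed level of the macrophage markers was 8.06, 13.7 and 14.1 FPKM in libraries 1, 2 and 3, of which Aif1 gave 5.08, 7.38 and 7.82. C1qa, a defining marker, was listed at 0, 0.28 and 0.53 FPKM, and Aif1, Csf1r, Cd68 and C1qb rose in the same order. The others did not: C1qc had 0.10, 0.49 and 0.10, Cx3cr1 0.22, 0.35 and 0.15 and Ptprc 0.55, 0.83 and 0.81 FPKM. The part of these cells in the spread of Egr1 was not tested.

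**Figure D4:**
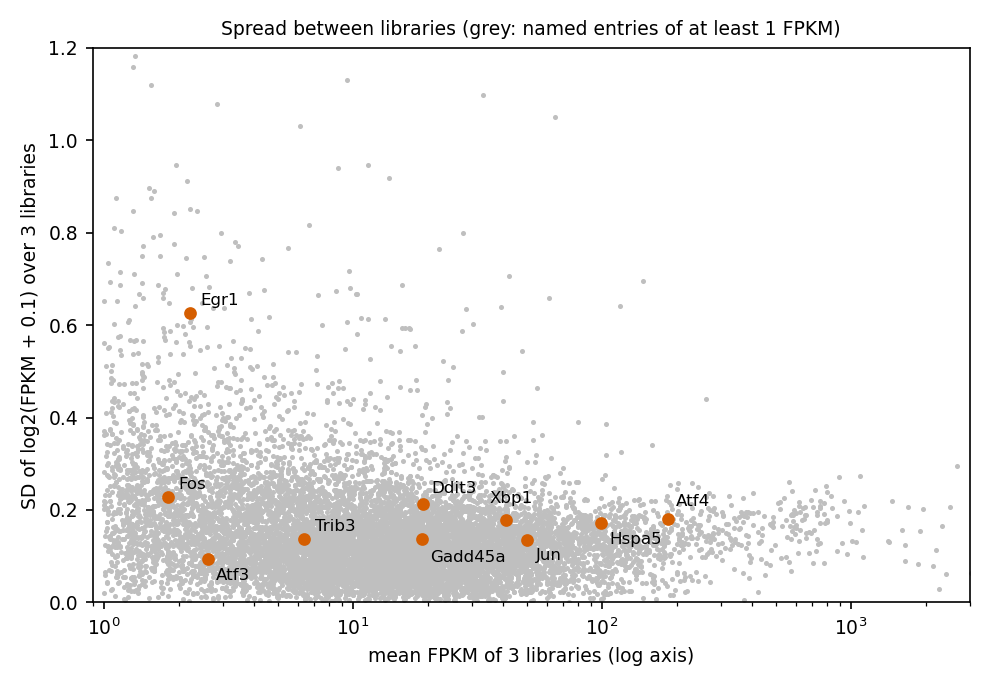
SD of log2(FPKM + 0.1) over the 3 libraries against mean FPKM on a log axis, for the 10 genes (named) and all 11109 named entries of at least 1 FPKM (grey; 30 lie outside the axes). Egr1 stands at an SD of 0.63, and the other 9 genes lie between 0.09 and 0.23.

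Library 2 was set against the mean of libraries 1 and 3 for each gene. Atf4, Hspa5, Xbp1, Ddit3, Gadd45a and Trib3 were highest there, 6 of the 10, while 63.1% of the 11109 named entries were, a share so near that the count is no result about these genes. Relative to the median of named entries, library 2 differed from the mean of the others by a log2 of 0.18 for Atf4, 0.16 for Hspa5, 0.15 for Xbp1, 0.13 for Ddit3, 0.08 for Trib3 and 0.03 for Gadd45a. The same difference was -0.99 for Egr1, -0.36 for Jun, -0.32 for Fos and -0.21 for Atf3. Among these 10 genes, the stress response genes thus lay above that median and Jun, Fos, Egr1 and Atf3 below it. Trib3 and Gadd45a did not pass the upper quartile of named entries, and single genes of the related lists lay on both sides of the median. A scaling of whole libraries shifts genes and median together, so it cannot test these positions. Without subtraction of the median, Jun, Fos and Atf3 turned to higher in library 2 when libraries were scaled to their summed FPKM, which moved the median to 0.49.

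The related lists had the following medians of this difference, before subtraction of the 0.13 of named entries. Counts of genes highest in library 2 stand beside them, where 63.1% of named entries were highest. The ER chaperones had 0.23 with 14 of 16, the Gadd45 and p53 list 0.21 with 9 of 10, the integrated stress core 0.20 with 9 of 11 and the Atf4 targets 0.20 with 12 of 16. Cytosolic heat shock had 0.17 with 4 of 5, degradation of ER proteins 0.13 with 5 of 9 and the inducers of immediate early genes 0.12 with 7 of 12. The other immediate early transcription factors had 0.11 with 4 of 10, the sensors 0.07 with 4 of 6 and the other immediate early genes 0.03 with 4 of 12. The Jun N-terminal kinase pathway had 0.02 with 5 of 10, and genes induced in injured sensory neurons 0.02 with 1 of 4. Only genes of at least 1 FPKM were counted. All 15 long transcripts and 3 of 4 commissural axon markers were lowest in library 2, as were 21.2% of the 11109 named entries. Robo3 had 118, 74.5 and 119 FPKM. Progenitor markers summed to 947, 1203 and 978 FPKM in libraries 1, 2 and 3, of which Fabp7 gave 492, 686 and 514. All 6 of 6 were highest in library 2, beside 63.1% of named entries. Their differences were uneven, at 0.45 for Fabp7, 0.33 for Sox2, 0.21 for Hes5, 0.16 for Vim, 0.12 for Nes and 0.05 for Slc1a3. Nes and Slc1a3 thus lay below the median of named entries. The part of long transcripts or of progenitors in the differences of the lists was not tested. Library 2 has no replicate of its own, so no test was made of this pattern.

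**Figure D5:**
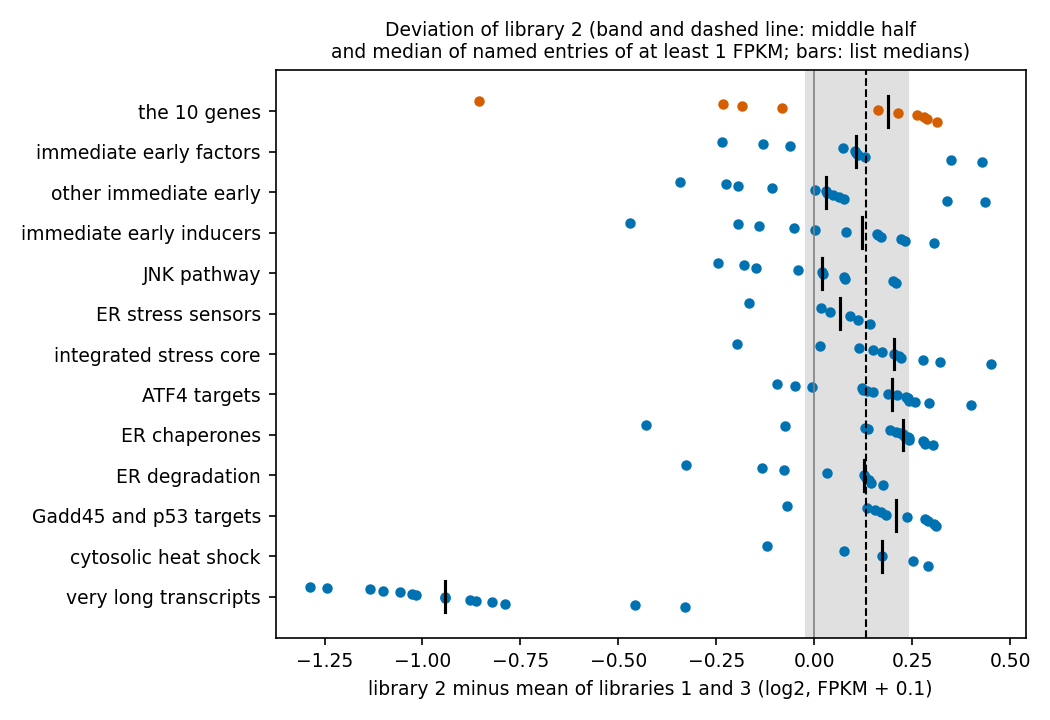
Log2 difference of library 2 from the mean of libraries 1 and 3 for genes of at least 1 FPKM, by list, with list medians as bars, the median of named entries (0.13) as a dashed line and a band from their lower to their upper quartile (-0.02 to 0.24). Atf4, Hspa5, Xbp1 and Ddit3 lie above the band, and Jun, Fos, Atf3 and Egr1 lie below it, Egr1 at -0.85. Very long transcripts lie far to the left.

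Profiles over 3 libraries single out few partners. Distance was taken between log2 values centred over the libraries, against 10612 described entries of at least 1 FPKM. The nearest to Atf4 were Cnih4 and Tpst1, to Hspa5 Tmem134 and Tmem35, to Xbp1 mrpl9 and Slc41a1, to Jun Aak1 and 2510002D24Rik, to Atf3 Gga3 and Dnmt3a, to Trib3 Tsr3 and CDADC1, to Ddit3 Nrip2 and Mgat5, to Gadd45a Mrps15 and Nsmce1, and to Fos C2cd2 and Zfp61. These distances were at most 0.0209 log2 units. Such likeness is common with 3 libraries: 2171 entries lay within 0.1 of Atf4, 2134 of Hspa5 and 657 of Jun. Fos had 76 and Egr1 had 0 within that distance, and the nearest to Egr1 were Thbs3 (1.67, 1.03 and 2.47 FPKM) at 0.173 and Abhd14a at 0.184.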

How the data were processed

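Polyadenylated RNA of 3 libraries of 1 group, made with a stranded kit and read as paired ends of 50 bases per the labels, was analysed from 1 table in which the authors deposited FPKM values. Trimmomatic 0.22, FastQC, STAR and the build rn6 appear in the submitters' processing notes. What tool made the FPKM values, with which annotation and use of strand and multiply mapped reads, was not given in the sources used here, so genes with near-identical copies are uncertain. FPKM gives no absolute depth, and no counting intervals were computed. Summed FPKM was 19897930 to 26236642, and 430187 to 477484 without entries above 10000 FPKM, and 0.270% to 0.423% of 11109 named entries had identical values in a pair of libraries, so all 3 were kept.

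With limma 3.58.1 (statmod 1.5.0, R 4.3.3), log2(FPKM + 0.1) of the 17611 entries not at 0 in every library was fitted, with a robust prior whose variance follows the mean level, and set one-sided against 1 FPKM. Pairs were tested two-sided as ratios within libraries, over all entries for each lower gene. Benjamini-Hochberg adjustment ran over all entries at 0.05. An exact sign-flip test of 3 libraries cannot go below p = 0.25. The lower gene's error is shared by all ratios of a fit, which makes its p-values too small. Printed intervals and p-values of pairs therefore use the sum of both genes' moderated variances, an alternative added after the data were seen. That sum treats both genes as independent and does not use the pairing within libraries. Only adjusted p-values under other settings come from the planned fit, which does use it. Tests were also run on simulated data with independent noise for each entry and library. Those data hold no difference between whole libraries, so the check does not cover such differences.

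The genes and lists were chosen with earlier results of these data known. Named are every member, the 3 highest, 2 lowest and most variable of each list (all of those of 6 or fewer) and the 2 nearest profiles of each member; the marker lists are given by counts. The values of 1 gene that this rule names are not reported here. Neighbours in the order of means and 8 preset pairs were named. Atf3 over Fos, Trib3 over Egr1, the ratio of Atf4 to Trib3 and the single macrophage and progenitor markers were chosen after their values were seen. Gadd45g was added in the same way. The lists of long transcripts and of commissural axon markers were added later. Of 216 list symbols, all matched, 3 by another RefSeq name (assembly GRCr8); Hspa1a fell on the entry of Hspa1b and was counted once. Where a symbol had several entries, the highest was taken. Figures used matplotlib 3.10.9.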

Additional observations from a re-analysis of the deposited data

How the results depend on the processing

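The alternatives were pseudocounts of 0.01 and 1, other filters and priors, 3 scalings, levels of 0.5 and 5 FPKM, a margin of 1.5-fold for pairs and each library left out. All 10 genes stayed above 1 FPKM with every pseudocount, filter, prior and scaling and with any 1 library left out, and the pairs called ranged from 39 to 42. Of 715 values for single genes and pairs under an alternative, 699 kept their direction and their side of the threshold, and 10 kept their direction but no longer passed, all of them Atf3 over Fos, Jun over Xbp1 or Trib3 over Egr1. The other 6 changed sign, and 3 of these were log2 ratios of pairs that were not called: Ddit3 over Gadd45a was -0.10 without library 1, -0.02 without library 2 and 0.15 without library 3, against 0.01 with all libraries, and Egr1 over Fos was -0.0022 without library 3 and 0.43 without library 2, against 0.20. With the 1.5-fold margin limma gave Atf3 over Fos an adjusted p = 0.666 and Jun over Xbp1 an adjusted p of 1. The other 3 changes of sign were levels set against 5 FPKM, where Fos, Egr1 and Atf3 lay below, by log2 differences of -1.44, -1.23 and -0.91, by construction of the higher level. At that level 5 of the immediate early transcription factors, 1 macrophage, 0 fibroblast and 0 neural crest markers passed, and at 0.5 FPKM 4 macrophage markers did. With 1 library left out the macrophage count was 1 to 3, with 1 without library 2 and 3 without library 1; the cause was not tested. No paired analysis of groups was possible because all libraries belong to 1 group. Ratios of genes were taken within libraries in the planned fit, while the printed intervals of pairs do not use that pairing. Values near 1 FPKM have 2 decimals, and depth behind them is unknown.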

Other observations

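Genes of cytosolic heat shock were split. Of 9 entries, 5 lay above 1 FPKM. The chaperone Hsp90aa1 had 597 ± 62.5 FPKM (SD, n = 3), the heat shock factor Hsf2 41.4 ± 1.28 and the chaperone Hsph1 41.4 ± 3.24. The co-chaperone Dnajb1, the most variable of those that passed, had 21.4 ± 2.57 FPKM. Hspb1 had 0.07, 0.13 and 0.36 FPKM in libraries 1, 2 and 3, and the inducible chaperone Hspa1b was listed at 0 in each. Whether that 0 is a failed estimate is not known.

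Of 7 genes known to be induced in injured sensory neurons, 4 lay above 1 FPKM. Sox11, also a factor of normal immature neurons, had 182 ± 17.5 FPKM, the neuropeptide Npy 31.3, 45.3 and 34.8, and Ecel1 5.91 ± 0.212. The values of Sprr1a and Vip were 0 in all libraries.

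Of the 21 genes whose RefSeq promoters held the exact ER stress element, 16 were found in the table by symbol. The highest were Calr, Hsp90b1, Canx, Hspa5 and Xbp1, at 126, 106, 99.0, 99.0 and 41.0 FPKM. Of the 14 with at least 1 FPKM, 13 were highest in library 2, as were 63.1% of 11109 named entries, and Pan2 was not, with 7.95, 6.34 and 8.68 FPKM. This set was chosen by sequence after the values had been seen, and no test was made.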
